A study of Mus musculus with 203 samples.

Results

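The mRNA levels of 9 genes of cellular iron handling were followed in macrophages that carried a knockdown of the histone demethylase Kdm1a and were treated with IL4: Fth1, Ftl1, Slc40a1, Tfrc, Trf, Steap3, Slc11a1, Slc11a2 and Ireb2. They were found by gene symbol, and all 9 were present among the 25094 genes of the RAW cell table and among the 16478 genes of a second table from bone marrow-derived macrophages (BMDMs). RAW264.7 (RAW cells) is a mouse macrophage cell line. Of its 16 RNA-seq libraries, 4 were from shGFP cells, 4 from shGFP cells with IL4, 4 from shKDM1A cells and 4 from shKDM1A cells with IL4, given at 20 ng/ml for 6 h. All 4 groups carried a stable lentiviral short hairpin RNA, directed against GFP in the control cells and against Kdm1a in the knockdown cells. Each knockdown value thus rests on 1 hairpin. Per the paper's methods, transduced cells were selected with puromycin and expanded as stable lines. Other differences between these lines cannot be told apart from the knockdown. The BMDM table compares wild-type and Gps2 knockout cells and holds the authors' fold changes and p-values only, which were not used, so every value below is from RAW cells. The sample labels give RAW cells for the knockdown libraries, whereas a figure legend of the study names BMDMs for that experiment, and the labels were followed.

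Iron enters most cells as transferrin (encoded by Trf) bound to the transferrin receptor (Tfrc), is reduced in the endosome by ferrireductases such as STEAP3 and is carried into the cytosol by DMT1 (Slc11a2). Macrophages also recover iron from engulfed red cells, and NRAMP1 (Slc11a1) moves divalent metals across the phagosomal membrane. Surplus iron is stored in ferritin, a shell of heavy (Fth1) and light (Ftl1) chains, or leaves the cell through ferroportin (Slc40a1), the iron exporter. The iron regulatory proteins, one of which is encoded by Ireb2, bind a stem-loop called the iron-responsive element when iron is scarce. Bound in a 5′ untranslated region (UTR) this element holds back translation, and bound in a 3′ UTR it protects the mRNA from decay. RNA-seq measures mRNA amount and not translation.

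Iron-responsive elements were searched for in the annotated UTRs, since they are what several of these genes have in common and the selection by name did not use them. The search asked for an unpaired C, a 5-base stem with at least 4 pairs (G with T allowed) and the loop CAGTGN. It found a match in 5 of the 9 genes. The sequences below, from the GENCODE vM1 transcripts of mm9, run 5′ to 3′ on the coding strand and show the element with its flanks. Capitals mark the loop.
Fth1, 5′ UTR, chr19:10057222-10057250, plus strand: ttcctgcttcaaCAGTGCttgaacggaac
Ftl1, 5′ UTR, chr7:52715149-52715177, minus strand: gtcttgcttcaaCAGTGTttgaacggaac
Slc40a1, 5′ UTR, chr1:45982310-45982338, minus strand: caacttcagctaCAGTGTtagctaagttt
Tfrc, 3′ UTR, chr16:32631305-32631333, plus strand: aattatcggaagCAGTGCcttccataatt
Tfrc, 3′ UTR, chr16:32631684-32631712, plus strand: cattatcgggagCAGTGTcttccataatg
Tfrc, 3′ UTR, chr16:32631749-32631777, plus strand: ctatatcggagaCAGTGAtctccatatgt
Tfrc, 3′ UTR, chr16:32631796-32631824, plus strand: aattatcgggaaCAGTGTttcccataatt
Slc11a2, 3′ UTR, chr15:100225584-100225612, minus strand: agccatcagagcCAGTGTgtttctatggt

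The elements of Fth1 and Ftl1 had 26 of 29 bases in common. The 4 in Tfrc had 18 to 25 in common with one another. All stems held 5 of 5 pairs except that of Slc11a2, which held 4. A 5′ UTR match was found in 189 of 19854 genes (0.952%) and a 3′ UTR match in 810 of 19915 (4.07%). The Slc11a2 match lies in 2 of its 8 coding transcripts, of 4415 and 4331 bases, and not in the one of 3025 bases, whose length is closest to the 3004 bases used for counting. No match was found in Slc11a1, Trf, Ireb2 or Steap3, which says only that these letters do not occur in their annotated UTRs.

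**Figure D1:**
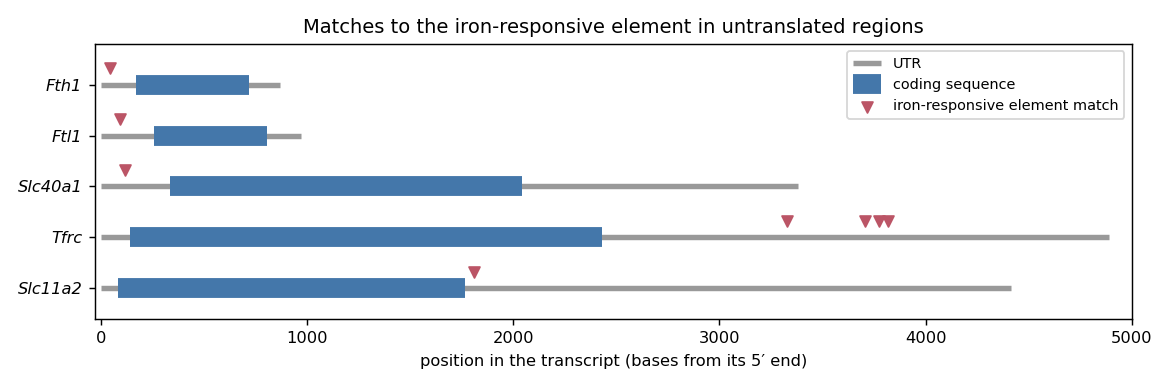
Coding sequence (blue) and UTRs (grey) of 5 transcripts against the position in bases from the 5′ end, with triangles at matches to the iron-responsive element. Fth1, Ftl1 and Slc40a1 have 1 match each ahead of the coding sequence, and Tfrc (4) and Slc11a2 (1) have theirs behind it.

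The libraries held 17554721 to 27782568 tags. The deposited values are log2-scale values per library that the authors' software moderated for weakly expressed genes, so a log2 difference of a weakly expressed gene may understate its change. Groups were compared with limma in 1 model of all 16 libraries on the 12905 genes that reached 1 on this scale in 4 or more libraries, and a gene was called at a Benjamini-Hochberg adjusted p under 0.05. All 9 iron handling genes passed this filter. The median absolute difference between libraries was 0.04 to 0.06 within a group and 0.06 to 0.09 between groups. Kdm1a, the target of the hairpin, was at 11.07 to 11.23 in the 8 shGFP libraries and 10.23 to 10.36 in the 8 shKDM1A libraries. It fell to 0.542 times the shGFP level without IL4 (limma adjusted p = 5.62e-13) and to 0.58 times with IL4 (adjusted p = 2.2e-12). Of 10 macrophage markers 9 passed the filter, with Csf1r at 14.97 to 15.49 and Cd68 at 13.58 to 13.82, while Mertk did not. Of the markers of other lineages, Klf1 (at most 2.11), Alas2 (at most 1.71) and S100a8 (at most 1.26) passed, and those of T cells, B cells, fibroblasts and hepatocytes did not. In bulk RNA, fewer cells of a kind and less RNA per cell cannot be told apart.

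Levels were ordered within shGFP cells after subtracting the log2 transcript length in kb. Per kb, Ftl1 (17.04) and Fth1 (15.86) led, above Tfrc (10.74), Slc11a1 (9.57), Steap3 (8.71), Ireb2 (8.68), Slc11a2 (8.34), Slc40a1 (6.38) and Trf (3.63). Steap3 and Ireb2 differed by less than their SDs over libraries (0.05 and 0.08), and the other neighbours in this order differed by more than theirs. Not corrected for length, Ftl1 lay above 99.98% and Fth1 above 99.94% of the genes tested, while Trf lay above 16.8% of them. The level of Ftl1 is less certain than the others, since 74.9% of the 50-base windows of its transcript occur elsewhere in mm9.

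The first comparison asked what the Kdm1a knockdown did to these genes, in cells without IL4 and in cells with it. Fth1 rose 2.11-fold and 2.23-fold, Tfrc 1.69-fold and 1.79-fold, Slc40a1 1.63-fold and 1.23-fold, Slc11a1 1.29-fold in both, and Ireb2 1.24-fold and 1.16-fold, without and with IL4 in turn. Ftl1 and Trf fell in both, and Slc11a2 was not called in either. Without IL4, shKDM1A cells had higher values for 6 of the 9 genes and lower values for 2, where 38.2% of all genes tested were called (19.7% higher and 18.4% lower). With IL4, 5 were higher and 2 lower, where 40.7% of all genes were called (20.9% higher and 19.8% lower). The groups did not overlap for 8 of the 9 genes without IL4, against 37.4% of all genes, and for 7 with IL4, against 36.4%. The median log2 difference of the 9 genes was 0.31 without IL4 and 0.22 with it, beside -0.0027 and -0.0024 over all genes tested. Macrophage markers moved in these comparisons too: of the 9 tested, 5 were higher and 4 lower without IL4 and 6 higher and 3 lower with it, and their part in the iron gene values was not tested.

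**Figure D2:**
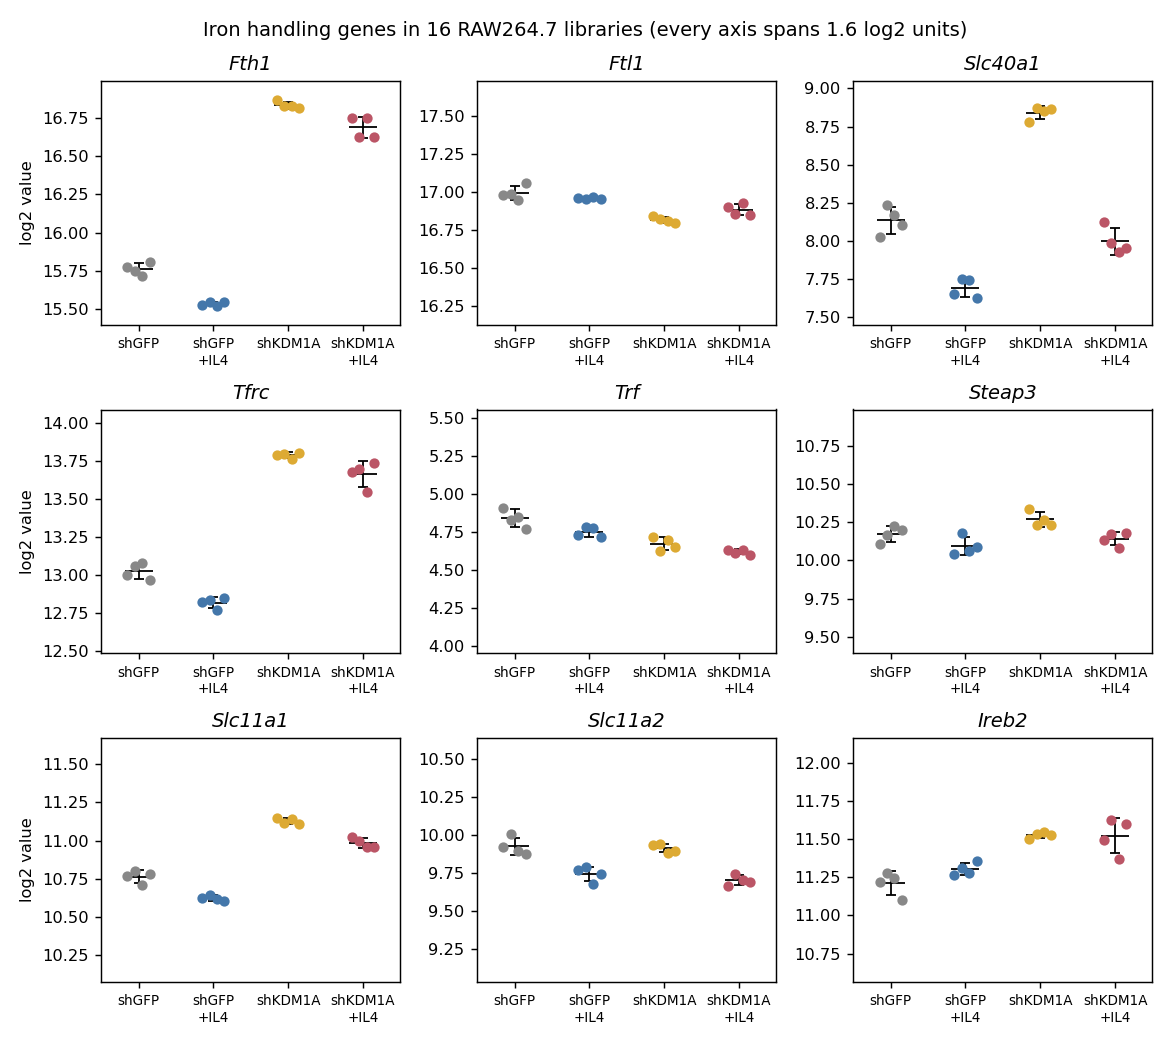
Log2 value (y axis, spanning 1.6 units in every panel) of the 9 genes in the 16 RAW cell libraries by group. Points are libraries and bars the mean ± SD (n = 4). Fth1 and Tfrc lie higher in both shKDM1A groups, at 16.63 to 16.87 and 13.54 to 13.80, and Slc40a1 is highest in shKDM1A cells without IL4, at 8.78 to 8.87.

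Of the storage genes, Fth1 (NM_010239, chromosome 19, 10057136 to 10059601, plus strand) encodes the heavy chain, whose ferroxidase site oxidises the iron to be stored. Its log2 values in the 4 libraries were 15.78, 15.75, 15.71 and 15.81 in shGFP cells and 16.87, 16.83, 16.83 and 16.82 in shKDM1A cells. With IL4 they were 15.53, 15.54, 15.52 and 15.54 in shGFP cells and 16.75, 16.63, 16.75 and 16.63 in shKDM1A cells. Every shKDM1A library lay above every shGFP library. The IL4-treated shKDM1A libraries fell into 2 pairs, with 1 and 3 above 2 and 4. The same pairs parted for Ftl1 and Trf (1 and 3 higher) and for Tfrc, Steap3 and Ireb2 (1 and 3 lower). They did not part for Slc40a1, Slc11a1 or Slc11a2, and the cause was not tested. The log2 difference of Fth1 was 1.07 (standard error 0.0296, limma adjusted p = 9.58e-14) without IL4 and 1.16 (standard error 0.0296, adjusted p = 3.93e-14) with IL4. A called difference of at least 1 on the log2 scale was rare among all genes tested, at 0.403% without IL4 and 0.434% with it. Quantile normalization, which sets the highest values of each library by their rank, gave Fth1 a difference of 0.91 without IL4 and 0.74 with IL4, both under that limit of 1.

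Ftl1 (NM_010240, chromosome 7, 52713314 to 52715256, minus strand) encodes the light chain, which lacks that site and aids iron core formation. It was at 16.98, 16.98, 16.94 and 17.06 in shGFP cells and at 16.84, 16.82, 16.81 and 16.80 in shKDM1A cells. With IL4 it was at 16.96, 16.95, 16.96 and 16.96 in shGFP cells and at 16.90, 16.86, 16.93 and 16.85 in shKDM1A cells. All shKDM1A libraries lay below all shGFP libraries of the same treatment, in the direction opposite to Fth1. The log2 difference was -0.17 (95% confidence interval -0.22 to -0.12, limma adjusted p = 2.25e-05) without IL4, and -0.07 (-0.13 to -0.02, adjusted p = 0.0206) with IL4. Quantile normalization gave -0.43 both without and with IL4. The call with IL4 was lost without shKDM1A IL4 library 2 (adjusted p = 0.0564) and without library 4 of that group (adjusted p = 0.0641). Ftl1 is also the gene whose reads are hardest to place: of the 919 windows of 50 bases in its transcript, 74.9% occur elsewhere in mm9, at 12 places, against 8.69% of 817 windows for Fth1, at 2 places. How reads with several matches were counted is not given in the sources used here, and their part in the Ftl1 values was not tested.

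Per kb, the log2 value of Fth1 minus that of Ftl1 was -1.20 to -1.16 in the shGFP libraries and -1.40 to -1.37 in those with IL4. In shKDM1A cells it was positive in all 4 libraries, at 0.06 to 0.07. With IL4 it was again negative, at -0.19 to -0.11. The mean ratio of heavy to light chain mRNA was thus 0.439 in shGFP cells and 0.384 in shGFP cells with IL4. It was 1.04 in shKDM1A cells and 0.901 in shKDM1A cells with IL4. No library of 1 group overlapped with another group. The level of these ratios, and their side of 1, is uncertain, since 74.9% of the Ftl1 windows occur elsewhere in mm9. The part of reads with several matches in these ratios was not tested.

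**Figure D3:**
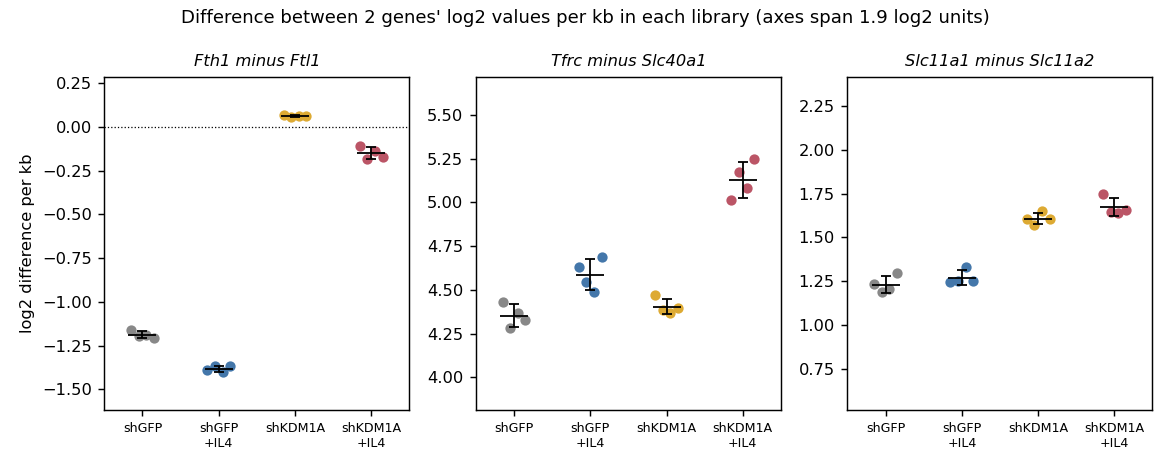
Difference between the log2 values per kb of 2 genes in each library (y axis, spanning 1.9 log2 units in each panel), with mean ± SD (n = 4). The difference Fth1 minus Ftl1 was -1.40 to -1.16 in the 8 shGFP libraries and -0.19 to 0.07 in the 8 shKDM1A libraries.

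Slc40a1 (NM_016917, chromosome 1, 45964915 to 45982439, minus strand) encodes ferroportin, the exporter. Its values were 8.03, 8.24, 8.17 and 8.10 in shGFP cells and 8.78, 8.87, 8.85 and 8.87 in shKDM1A cells. With IL4 they were 7.65, 7.75, 7.75 and 7.62 in shGFP cells and 8.12, 7.99, 7.92 and 7.95 in shKDM1A cells. The knockdown libraries were the higher ones under both treatments, without overlap. The log2 difference was 0.71 (standard error 0.0478, limma adjusted p = 4.76e-09) without IL4 and 0.30 (standard error 0.0478, adjusted p = 9.06e-05) with IL4, and the test of this change is given with the IL4 responses.

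Of the uptake genes, Tfrc (NM_011638, chromosome 16, 32608982 to 32632880, plus strand), the transferrin receptor, was at 13.00, 13.06, 13.08 and 12.97 in shGFP cells and at 13.79, 13.79, 13.76 and 13.80 in shKDM1A cells. With IL4 it was at 12.82, 12.83, 12.77 and 12.85 in shGFP cells and at 13.67, 13.70, 13.54 and 13.74 in shKDM1A cells. The lowest knockdown library was at 13.54 and the highest control library at 13.08. Tfrc differed by 0.76 on the log2 scale (standard error 0.0355, limma adjusted p = 5.48e-11) without IL4 and 0.84 (standard error 0.0355, adjusted p = 1.44e-11) with IL4. Receptor and exporter mRNA both rose without IL4, and Tfrc exceeded Slc40a1 per kb by 4.29 to 4.43 in shGFP and by 4.37 to 4.47 in shKDM1A libraries, which overlapped. With IL4 it did so by 4.49 to 4.69 in shGFP and by 5.01 to 5.25 in shKDM1A libraries, which did not overlap.

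Trf (NM_133977, chromosome 9, 103111206 to 103132616, minus strand), which encodes the plasma iron carrier transferrin, was the most weakly expressed of the 9 genes. It was at 4.91, 4.83, 4.85 and 4.77 in shGFP cells, 4.72, 4.62, 4.70 and 4.65 in shKDM1A cells, 4.73, 4.78, 4.78 and 4.71 in shGFP cells with IL4 and 4.63, 4.61, 4.63 and 4.60 in shKDM1A cells with IL4. The knockdown libraries were below the control libraries of the same treatment without overlap. On the log2 scale Trf differed by -0.17 (limma adjusted p = 0.000201) without and -0.13 (adjusted p = 0.00157) with IL4.

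Steap3 (NM_133186, chromosome 1, 122122993 to 122161857, minus strand), the endosomal ferrireductase, had the smallest difference among the genes called without IL4. It was at 10.11, 10.17, 10.22 and 10.20 in shGFP and at 10.34, 10.24, 10.27 and 10.24 in shKDM1A libraries, a log2 difference of 0.10 (limma adjusted p = 0.0372). The call was lost without shGFP library 1 or 2 or shKDM1A library 1 or 3 (adjusted p = 0.0655 to 0.125), without the filter on low values (adjusted p = 0.0987) and with quantile normalization (adjusted p = 0.0922). With IL4 the groups overlapped, at 10.04 to 10.18 and 10.08 to 10.18, and the difference of 0.05 (95% confidence interval -0.02 to 0.12) was not called.

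Of the paralogous metal transporters, Slc11a1 was called under both treatments and Slc11a2 under neither, and the difference between the genes was not tested. Slc11a1 (NM_013612, chromosome 1, 74421777 to 74432625, plus strand), the phagosomal transporter, was at 10.77, 10.80, 10.71 and 10.78 in shGFP cells and at 11.14, 11.12, 11.14 and 11.11 in shKDM1A cells. With IL4 it was at 10.62, 10.64, 10.62 and 10.60 in shGFP cells and at 11.03, 11.00, 10.96 and 10.96 in shKDM1A cells. All knockdown libraries were above all control libraries. The log2 difference was 0.36 both without IL4 (limma adjusted p = 1.58e-09) and with it (adjusted p = 1.68e-09). These are mRNA values, and metal transport by the protein in RAW cells was not measured.

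Slc11a2 (NM_008732, chromosome 15, 100218331 to 100253486, minus strand), the endosomal transporter, was at 9.92, 10.01, 9.90 and 9.88 in shGFP cells and at 9.93, 9.94, 9.89 and 9.90 in shKDM1A cells. With IL4 it was at 9.77, 9.79, 9.68 and 9.74 in shGFP cells and at 9.67, 9.75, 9.71 and 9.69 in shKDM1A cells. Control and knockdown libraries overlapped under both treatments. The log2 difference was -0.01 (95% confidence interval -0.08 to 0.05, limma adjusted p = 0.797) without IL4 and -0.04 (-0.11 to 0.02, adjusted p = 0.295) with it, so that a change as large as that of Slc11a1 lies outside both intervals. Per kb, Slc11a1 exceeded Slc11a2 by 1.19 to 1.33 in the 8 shGFP libraries and by 1.57 to 1.75 in the 8 shKDM1A libraries. Exons of Slc11a2 share 402 bases with Gm5475 on the opposite strand, and the counting did not separate strands.

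Ireb2 (NM_022655, chromosome 9, 54711562 to 54760341, plus strand) encodes IRP2, a protein that binds the elements printed above. It was at 11.22, 11.28, 11.25 and 11.10 in shGFP cells and at 11.50, 11.53, 11.54 and 11.52 in shKDM1A cells. With IL4 it was at 11.27, 11.31, 11.28 and 11.36 in shGFP cells and at 11.50, 11.63, 11.37 and 11.60 in shKDM1A cells, where the spread was widest. The groups still did not overlap. The log2 difference was 0.31 (limma adjusted p = 5.91e-05) without IL4 and 0.22 (adjusted p = 0.0015) with IL4. Aco1, which encodes the other iron regulatory protein and was looked up here for that role after its values were seen, fell by 0.10 without IL4 (adjusted p = 0.0132) and by 0.19 with IL4 (adjusted p = 5.34e-05), in the direction opposite to Ireb2.

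The genes with an iron-responsive element went in both directions. Of the 3 genes with a match in the 5′ UTR, Fth1 and Slc40a1 were higher and Ftl1 lower in shKDM1A cells under both treatments. Of the 2 with a match in the 3′ UTR, Tfrc was higher and Slc11a2 was not called. The Slc11a2 value was counted over 3004 bases, closest to its transcript of 3025 bases, which lacks the match. It may therefore not stand for the transcripts with the element.

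**Figure D4:**
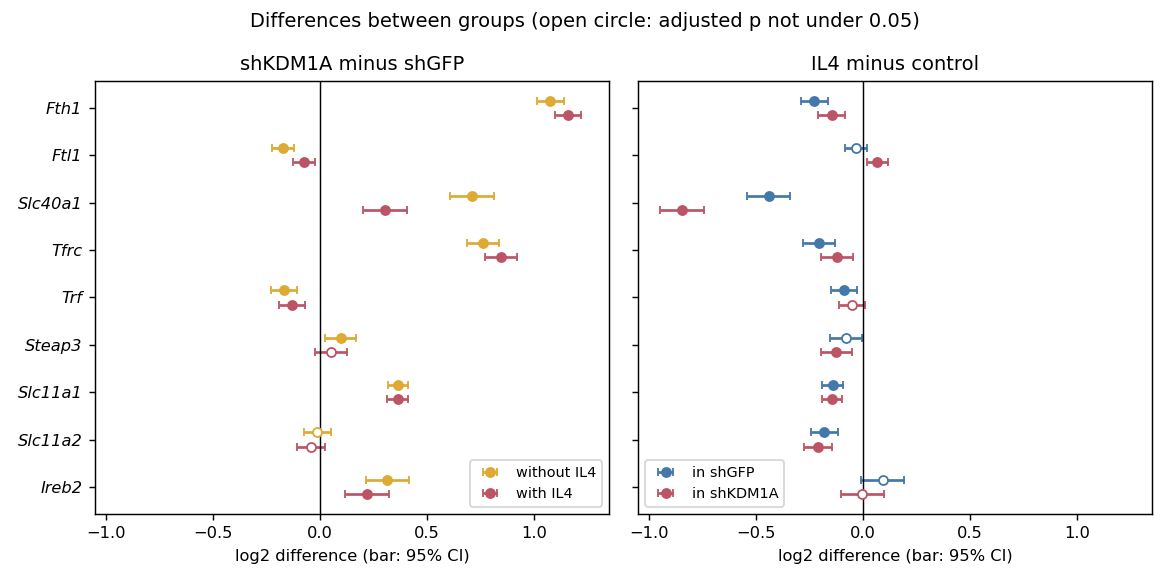
Log2 differences with 95% confidence intervals for the 9 genes, shKDM1A minus shGFP on the left and IL4 minus control on the right, with open circles where the limma adjusted p was not under 0.05. On the left Fth1 lies at 1.07 and 1.16 and Slc11a2 at -0.01 and -0.04, and on the right Slc40a1 lies at -0.44 in shGFP and -0.85 in shKDM1A cells.

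The second comparison asked how these genes responded to IL4, the cytokine that drives alternative (M2) macrophage activation. IL4 lowered most of them. In shGFP cells 6 of the 9 genes were lower and none (0 of 9) higher, where 26.9% of all genes tested were called (13.1% higher and 13.7% lower). At an unadjusted p under 0.05, limma still placed 0 of the 9 higher and Steap3 among the lower ones. The groups did not overlap for 5 of the 9, against 28.3% of all genes. In shKDM1A cells 6 were lower and Ftl1 was higher, where 27.1% were called (13.6% higher and 13.5% lower), and the groups did not overlap for 7 of the 9, against 25.7%. The median log2 difference of the 9 was -0.14 in shGFP and -0.13 in shKDM1A cells, beside -0.00049 and -0.0025 over all genes tested. The IL4 comparisons share their libraries with the knockdown comparisons above. Of the 9 macrophage markers tested, 2 were higher and 3 lower with IL4 in shGFP cells and 2 higher and 4 lower in shKDM1A cells. In shGFP cells Adgre1 rose by 1.24, and Cd14 fell by 0.93 and Lyz2 by 0.53, and the part of these changes in the iron gene values was not tested.

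The largest response among the 9 was that of the exporter gene Slc40a1. From the values above, IL4 took it from 8.03 to 8.24 down to 7.62 to 7.75 in shGFP cells and from 8.78 to 8.87 down to 7.92 to 8.12 in shKDM1A cells. This was a fall to 0.737 times (log2 difference -0.44, standard error 0.0478, limma adjusted p = 2.61e-06) in shGFP cells and to 0.556 times (log2 difference -0.85, standard error 0.0478, adjusted p = 1.02e-09) in shKDM1A cells. The drop differed between the 2 cell lines by -0.41 (95% confidence interval -0.55 to -0.26, adjusted p = 0.00202), where 6.13% of all genes tested were called (3.56% higher and 2.57% lower). A called difference of at least 1 was found for 0.00775% of all genes here and for 0.201% and 0.163% in the IL4 comparisons of shGFP and shKDM1A cells, and for none (0) of the 9 genes. Slc40a1 was the 1 gene of the 9 called in this test, and stayed called without any single library. In shKDM1A cells with IL4 it lay between 7.92 and 8.12, close to the 8.03 to 8.24 of shGFP cells without IL4.

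Fth1 fell with IL4 by 0.23 on the log2 scale in shGFP cells (limma adjusted p = 1.9e-05) and by 0.15 in shKDM1A cells (adjusted p = 0.00136). The difference between these falls, 0.08 (95% confidence interval -0.0068 to 0.17), was not called (adjusted p = 0.26), whereas quantile normalization gave a fall of 0.44 on the log2 scale in shKDM1A cells and turned the difference to -0.17 (adjusted p = 0.00136). Ftl1 differed by -0.03 (-0.08 to 0.02) in shGFP cells, not called, and by 0.07 (0.02 to 0.12, adjusted p = 0.0496) in shKDM1A cells. The latter call was lost without any of 11 of the 16 libraries (adjusted p = 0.0591 to 0.153), without the filter on low values (0.0844), with only the 2 groups in the model (0.0797) and with quantile normalization.

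Among the uptake genes, Tfrc fell by 0.21 in shGFP cells (limma adjusted p = 0.000321) and by 0.12 in shKDM1A cells (adjusted p = 0.0163), the latter no longer called without the filter on low values (0.0522) or with quantile normalization (0.0562). Steap3 differed by -0.08 in shGFP cells (adjusted p = 0.099) and fell by 0.13 in shKDM1A cells (adjusted p = 0.0117). The former was called without shGFP library 1 (adjusted p = 0.0475) and without shGFP IL4 library 2 (adjusted p = 0.0259). Trf fell by 0.09 in shGFP cells (adjusted p = 0.0288), where the groups overlapped, and differed by -0.05 in shKDM1A cells (adjusted p = 0.194). The call in shGFP cells was lost without shGFP library 1 or 3 or shGFP IL4 library 1 or 4 (adjusted p = 0.064 to 0.103), without the filter (0.068), with only the 2 groups in the model (0.0573) and in the exact two-sided permutation test of the 4 against 4 libraries (p = 0.0857).

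Both metal transporters fell in both lines, Slc11a1 by 0.14 in shGFP (limma adjusted p = 0.000151) and 0.14 in shKDM1A cells (adjusted p = 0.000134) and Slc11a2 by 0.18 (adjusted p = 0.000227) and 0.21 (adjusted p = 5.38e-05). Slc11a2 thus responded to IL4 while no difference with the knockdown was called. Ireb2 was called in neither line, with log2 differences of 0.09 (-0.01 to 0.19) and -0.0036 (-0.10 to 0.10). The difference between the IL4 responses of the 2 lines ranged from -0.09 (Ireb2) to 0.10 (Ftl1, 95% confidence interval 0.03 to 0.17, adjusted p = 0.0921) for the 8 genes other than Slc40a1, none of them called. At an unadjusted p under 0.05, limma placed Slc40a1 and Ftl1 in this test, and with a trended prior variance Ftl1 was called (adjusted p = 0.026).

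Over the 16 libraries the log2 values of Fth1 and Tfrc moved most alike among the 9 genes (Pearson r = 0.986), and those of Ftl1 and Ireb2 most oppositely (r = -0.921). These 16 points are 4 groups of 4 and share the group means and library scaling, so r describes the groups. Fth1 and Slc40a1 had the widest range of group means, 1.30 and 1.15, and the genes most like them of all 12905 tested were looked up. For Fth1 they were Lyz1, which encodes a lysozyme (r = 0.998), Ctsl, which encodes the lysosomal protease cathepsin L (r = 0.998), and Ifi27l2a, an interferon-inducible gene (r = 0.997). For Slc40a1 they were Pmp22, a membrane protein gene (r = 0.985), Atp6v1a, a subunit of the lysosomal proton pump (r = 0.983), and Sqstm1, which encodes the autophagy receptor p62 (r = 0.98).

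The other genes of iron metabolism, 76 in 3 lists, were counted in the same model, where 40.7% of all genes tested were called in the knockdown with IL4, 38.2% without it and 26.9% with IL4 in shGFP cells. The first list held 30 genes of iron uptake, storage, trafficking and regulation, of which 18 passed the filter. In shKDM1A against shGFP cells with IL4, 3 were higher and 9 lower, with a median log2 difference of -0.07, and without IL4 4 were higher and 6 lower, beside 20.9% higher and 19.8% lower with IL4 and 19.7% and 18.4% without it over all genes. In the knockdown with IL4, the zinc and iron transporter Slc39a8 rose by 0.83 (limma adjusted p = 2.31e-12). Bdh2, for which a part in making a mammalian siderophore has been proposed, rose by 0.36 (adjusted p = 9.05e-07). Slc22a17, the lipocalin 2 receptor, fell by 0.47 (adjusted p = 2.05e-09) and Slc25a37, the mitochondrial iron importer mitoferrin 1, by 0.31 (adjusted p = 1.27e-07). With IL4 in shGFP cells 6 of the 18 were higher and 3 lower, the median being 0.02. Hfe, the hemochromatosis gene whose protein binds the transferrin receptor, rose from 8.56 ± 0.0366 (SD, n = 4) to 9.63 ± 0.0758, a log2 difference of 1.07 (adjusted p = 2.3e-12). Picalm, a clathrin adaptor that serves transferrin receptor endocytosis, rose by 0.55 (adjusted p = 3.86e-12), whereas the lysosomal channel gene Mcoln1 fell by 0.11 (adjusted p = 0.0298) and Slc25a37 by 0.10 (adjusted p = 0.012).

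The second list held 17 genes of heme uptake, breakdown and export, 13 of which passed the filter. Knockdown with IL4 gave 5 higher and 3 lower, with a median of 0.02, and knockdown without IL4 4 higher and 1 lower. The 5 of 13 called without IL4 are a share near the 38.2% of all genes, and the 8 of 13 with IL4 stand beside 40.7%. Hmox1, the inducible heme oxygenase that frees iron from heme, was at 11.43 ± 0.0105 (SD, n = 4) in shGFP and 12.33 ± 0.0203 in shKDM1A cells with IL4 (log2 difference 0.90, limma adjusted p = 2.84e-15), and Slc48a1, which carries heme out of the phagolysosome, rose by 0.36 (adjusted p = 2.31e-08). Nfe2l2, which encodes the antioxidant factor NRF2, fell by 0.19 (adjusted p = 3.03e-07) and the heme exporter gene Flvcr1 by 0.18 (adjusted p = 0.0171). With IL4 in shGFP cells 3 were higher and 3 lower. The scavenger receptor Lrp1 rose by 0.56 (adjusted p = 0.00599) with an SD of 0.183 without IL4, and Slc48a1 by 0.24 (adjusted p = 4.12e-06). Blvra, a biliverdin reductase, fell by 0.26 (adjusted p = 3.47e-05) and Nfe2l2 by 0.23 (adjusted p = 6.56e-08).

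The third list held 29 genes of heme synthesis and iron-sulfur cluster assembly, all of which passed the filter. Knockdown with IL4 gave 8 higher and 4 lower and knockdown without IL4 4 higher and 6 lower, with medians of 0.02 and 0.0092. These 12 and 10 of 29 are shares near the 40.7% and 38.2% of all genes. Ciao1, of the cytosolic assembly machinery, rose by 0.17 with IL4 (limma adjusted p = 0.000167), and Isca1, a mitochondrial assembly gene, fell by 0.12 (adjusted p = 0.00455). IL4 in shGFP cells left 25 of the 29 uncalled, beside 26.9% of all genes called. The assembly scaffold Iscu rose by 0.21 (adjusted p = 0.000227), and Tmem14c, of heme synthesis, fell by 0.16 (adjusted p = 0.000866). Of these 3 lists, Alas2 and Tmem14c held a 5′ UTR match to the iron-responsive element and Bach1 and Bola3 a 3′ UTR match.

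**Figure D5:**
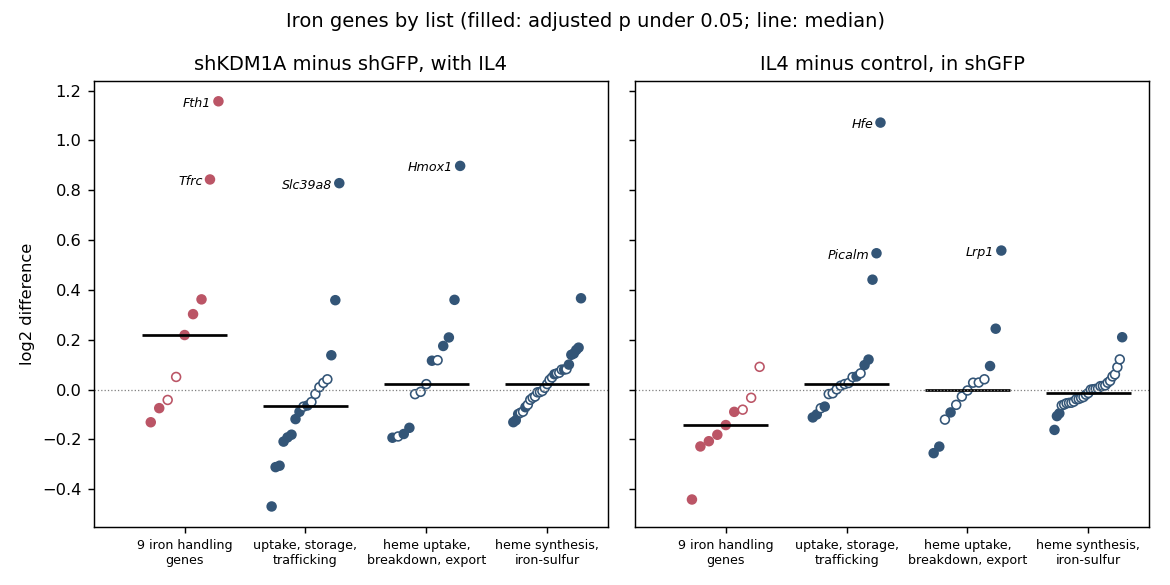
Log2 differences (y axis) of the 9 iron handling genes and of 3 lists of other iron genes, for the knockdown with IL4 (left) and for IL4 in shGFP cells (right), with filled points where the limma adjusted p was under 0.05 and lines at the medians. Fth1, Tfrc, Slc39a8 and Hmox1 lie above 0.5 on the left, and Hfe, Picalm and Lrp1 on the right.

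Promoter windows from RefSeq (GRCm38.p6, 250 bases before to 50 after the start) were given for 6 of the 9 genes, 11 windows in all. None was given for Slc40a1, Slc11a2 or Trf, whose promoters were not searched. They were searched on both strands for the core of the antioxidant response element (TGACNNNGC), a STAT6 site (TTC and GAA with 4 bases between them) and the E-box CACGTG, which occur in 12.4%, 6.95% and 7.15% of the 32851 windows of all genes. Of the 11, 1 of the 4 windows of Steap3 held a STAT6 site match, and the other windows held none of the 3 motifs. Absence says only that these letters do not occur in the windows, and sequence outside them was not searched. The Steap3 match is shown in capitals with 10 bases on either side.
Steap3, chr1:120270221-120270250, minus strand: gccacccagcTTCAGAAGAAatggctgcag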

How the data were processed

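RNA-seq was analysed in 16 libraries of RAW cells, in 4 groups of 4 libraries. Per the paper's methods and the submitters' processing notes, reads were aligned to mm9 with HISAT2 and counted over exons on both strands with HOMER, with 1 transcript kept per gene, and DESeq2 was run through HOMER. Versions are not given in the sources used here. The values the authors deposited are a moderated log2-scale score per gene and library, with decimal commas; the name of the transformation is not given, and the read counts were not used here. The columns of the authors' own comparisons in this table, and the table of the 16 BMDM libraries, hold fold changes with raw and adjusted p-values and were not used. The samples of the 4C, ATAC, ChIP and CUT&Tag assays were left out, since the question is mRNA level.

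Genes that reached 1 on this scale in 4 or more libraries were kept (12905 of 25094), and 1 limma model (limma 3.58.1, R 4.3.3) with the 4 group means was fitted to all 16 libraries. p-values were two-sided and adjusted by Benjamini-Hochberg over all genes tested in each of 5 comparisons. The paper's methods state for all its experiments together that biological replicates were used. The labels do not say which libraries came from separate cultures, so p-values measure the spread between these libraries. Exact permutation tests of 4 against 4 libraries cannot go below 0.0286. The libraries held 17554721 to 27782568 tags, and their number per group limits the precision. The script was tested on simulated data.

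The 9 genes and the lists were chosen with earlier results of these data known. Of the 3 lists of other iron genes, the 2 called genes with the largest rise and the 2 with the largest fall were named for the knockdown with IL4 and for IL4 in shGFP cells, and for Fth1 and Slc40a1 the 3 genes with the highest Pearson r over the libraries. Some genes that this rule selects are not reported here. Iron-responsive elements and repeated sequence were searched in mm9 with GENCODE vM1 transcripts. Alternatives were no filter, quantile normalization, median centring, a prior variance with a trend, only the groups compared, exact permutation, a replicate block and leaving out each library.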

Additional observations from a re-analysis of the deposited data

Results flagged for a closer look

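The response of Slc40a1 to IL4 differed between the cell lines, by a test of the difference itself. The log2 difference between the responses was -0.41 (standard error 0.0676, limma adjusted p = 0.00202), from -0.44 in shGFP cells to -0.85 in shKDM1A cells. All 4 IL4 libraries lay below all 4 libraries without IL4 in either line. Among the 36 sets of 4 libraries formed by the 9 genes and 4 groups, 0 had a library standing apart from the other three by Dixon's criterion, which chance meets in about 1 of 20.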

How the results depend on the processing

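Of 1017 repeats of a gene's comparison under another setting, 968 kept direction and side of the threshold, 33 lost the call, 3 gained one and 13 reversed. The count of the 9 genes called ranged, when 1 library was left out, from 7 to 8 for the knockdown without IL4, 6 to 7 with IL4, 5 to 7 for IL4 in shGFP cells, 6 to 7 in shKDM1A cells and 1 to 1 for the difference in response, where Slc40a1 ranged from -0.45 to -0.37. That last count was 2 under quantile normalization (Slc40a1, and Fth1 reversed to -0.17) and 2 with a trended prior variance (Slc40a1 and Ftl1). The cause was not tested. Small uncalled differences reversed: under median centring Ireb2 with IL4 in shKDM1A cells (0.0066) and the Slc11a1 difference in response (0.0075), and without 1 library these 2 (-0.038 to 0.048 and -0.016 to 0.017) and Slc11a2 in the knockdown without IL4 (-0.028 to 0.015). Over all genes, the difference in response was called for 791 genes, for 431 without the filter and for 530 to 1104 without 1 library. With the replicate block, 7, 7, 6, 6 and 1 of the 9 genes were called in the 5 comparisons, against 8, 7, 6, 7 and 1 without it; Steap3 in the knockdown without IL4 (adjusted p = 0.0564) and Ftl1 with IL4 in shKDM1A cells (adjusted p = 0.0793) lost the call. Same-numbered libraries correlated at -0.343 to 0.273 (3 of 24 pairs over 0.1), so the numbers do not pair them. The planned pseudocount was not run, since the values are logs already, and read depth per gene is unknown from these values.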
